A study of Mus musculus with 10 samples.

Results

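CC chemokines are small secreted proteins that guide leukocytes, and they carry a pair of adjacent cysteines near the start of the mature chain. They are held on glycosaminoglycans of vessels and matrix and act through G protein-coupled receptors on monocytes, T cells, dendritic cells and granulocytes. Macrophages are a main source of several of them, which are studied in neuroinflammation for the entry of monocytes and T cells into the spinal cord. The 10 genes described here are *Ccl2*, *Ccl7*, *Ccl12*, *Ccl8*, *Ccl5*, *Ccl3*, *Ccl4*, *Ccl6*, *Ccl9* and *Ccl24*, picked by gene symbol as the CC ligands that macrophages are known to make, out of 55487 genes in the table. Each symbol matched 1 row, and all 10 passed the filter on low counts, a CPM (counts scaled to a common library size of 1e6) above 1 in at least 3 libraries, as did 13740 genes in all.

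The cells came from the spinal cords of 5 male C57BL/6 mice of 8 to 12 weeks with the Arg1tm1Lky allele, in which cells that transcribe *Arg1* also make a yellow fluorescent protein (YFP). All animals had experimental autoimmune encephalomyelitis (EAE), induced with the myelin peptide MOG35-55 in complete Freund's adjuvant and with pertussis toxin, and were taken at the peak of disease. From each animal, m2, m6, m234, m235 and m236, viable CD3-Ly6G-CD45+CX3CR1+ cells were sorted into 200000 YFP+ (ARG1+) and 100000 YFP- (ARG1-) cells, so that 5 ARG1+ and 5 ARG1- libraries were compared. The gate does not separate monocyte-derived cells from macrophages that reside in the central nervous system, no sample from healthy animals was analysed here, and YFP reports *Arg1* transcription and not the enzyme. *Arg1* itself was 813 ± 174 CPM in the ARG1+ sort and 18.4 ± 4.95 CPM in the ARG1- sort (SD over 5 libraries), and the groups did not overlap.

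Library totals were 28212174 to 35455643 counts in 9 libraries and 8396863 in the ARG1- library of m234. That library also stood apart in its cell type markers. The summed CPM of 9 microglia markers was 1490.4 in it, against 218 to 609.9 in the other ARG1- libraries and 158 to 351 in ARG1+ libraries, and its *P2ry12*, a purine receptor that marks microglia, was at 107 CPM against 19.4 to 44.8 CPM in the other ARG1- libraries. Several tests and ranges that it changes are given without it as well, but not all. Tests of lists other than the CC ligands and CC receptors were not repeated without it. *Cd3e* of T cells was at 0 to 0.233 CPM and *Ly6g* of neutrophils at 0 to 0.129 CPM in all libraries, and *P2ry12* of microglia and *Ccr2* and *Ly6c2* of monocytes were present in every library.

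Of the 10 ligands, 9 lie on mouse chromosome 11 in a pair of gene clusters, and *Ccl24* lies alone on chromosome 5. The cluster of *Ccl2*, *Ccl7*, *Ccl12* and *Ccl8* spanned 81229 bases, and that of *Ccl5*, *Ccl9*, *Ccl6*, *Ccl3* and *Ccl4* spanned 138906 bases, with 1408978 bases between them (GRCm38). The first ran from base 82035571 at *Ccl2* to 82116799 at *Ccl8*, the second from 83525778 at *Ccl5* to 83664683 at *Ccl4*, and *Ccl24* is at chr5:135569937-135573049 on the minus strand. Coding sequences, in the GENCODE annotation of the same build, were compared by the share of identical alignment columns. Gaps count as columns, so that a difference in length lowers the share. *Ccl2*, the longest at 148 codons, and *Ccl12*, at 104 codons, had 47.4%. The 3 pairs most similar by this measure were *Ccl3* and *Ccl4* with 67.0%, *Ccl12* and *Ccl8* with 64.8%, and *Ccl6* and *Ccl9* with 64.6%. These 6 are shown by the 51 bases of coding sequence around the paired cysteine codons, which are in capitals, so that each pair can be set beside its values below. Each stretch joins 2 exons, so that the coordinates after it include an intron, and it is written 5′ to 3′ on the strand of the gene.
Ccl3: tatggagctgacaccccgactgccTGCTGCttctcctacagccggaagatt (chr11:83648631-83649202, - strand)
Ccl4: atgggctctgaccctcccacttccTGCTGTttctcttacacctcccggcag (chr11:83662738-83663508, + strand)
Ccl12: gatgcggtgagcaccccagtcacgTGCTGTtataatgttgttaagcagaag (chr11:82101972-82102660, + strand)
Ccl8: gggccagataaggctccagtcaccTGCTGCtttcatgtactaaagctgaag (chr11:82115306-82116082, + strand)
Ccl6: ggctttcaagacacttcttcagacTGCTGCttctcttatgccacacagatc (chr11:83589365-83589757, - strand)
Ccl9: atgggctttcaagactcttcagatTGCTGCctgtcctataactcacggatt (chr11:83575905-83576378, - strand)
*Ccl6* and *Ccl9* have 49 and 56 codons before the paired cysteines and 4 exons, whereas the other 8 ligands have 31 to 33 codons there and 3 exons. In *Ccl4* and *Ccl12* the codon pair is TGCTGT, and in the other members it is TGCTGC. No 50-base stretch of a member's exons occurred in another member, so that the counts of the 10 genes could be kept apart at the read length of 50 bases. In *Ccl9*, 1.995% of such stretches were found in other genes of the annotation. No member shared exon bases with another gene. The antisense transcript *E230016K23Rik*, which overlaps the *Ccl6* locus outside its exons, had 4 to 60 counts per library against 3147 to 65030 for *Ccl6*.

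Levels of different genes were compared as CPM per kilobase of exon, with the mean of 5 libraries. In ARG1+ cells *Ccl6* was the most abundant at 1060 CPM per kilobase, and all 5 ARG1+ libraries (665 to 1566) lay above the highest *Ccl5* value (424). Then came *Ccl5* (313), *Ccl3* (184), *Ccl9* (125), *Ccl2* (120) and *Ccl4* (84.7 CPM per kilobase), where each gene overlapped the next in its range over libraries. A gap without overlap separated *Ccl4* from *Ccl7* (32.7), and *Ccl12* (14.9), *Ccl24* (7.57) and *Ccl8* (1.64 CPM per kilobase) followed, again each with overlap.

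In ARG1- cells the order was *Ccl6* (504), *Ccl5* (430), *Ccl3* (213), *Ccl4* (153), *Ccl2* (127), *Ccl9* (82.5), *Ccl7* (30.9), *Ccl12* (28.1), *Ccl24* (2.46) and *Ccl8* (2.23 CPM per kilobase). There *Ccl6* and *Ccl5* overlapped, and *Ccl5* was the higher of both in m6 and m234, and on average when m2 was left out (482 against 470.2 CPM per kilobase). Neighbours without overlap were *Ccl2* above *Ccl9*, *Ccl9* above *Ccl7* and *Ccl12* above *Ccl24*. Several of these places rested on 1 library. Without m234, *Ccl2* (122) was above *Ccl4* (109 CPM per kilobase) in ARG1- cells, and *Ccl4* was above *Ccl2* in 2 of the 5 libraries. *Ccl24* was above *Ccl8* in the ARG1- library of m2 alone, and without it *Ccl8* (2.34) was above *Ccl24* (0.953 CPM per kilobase). In ARG1+ cells *Ccl9* was above *Ccl2* in 2 of 5 libraries, and below it on average without m2.

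**Figure D1:**
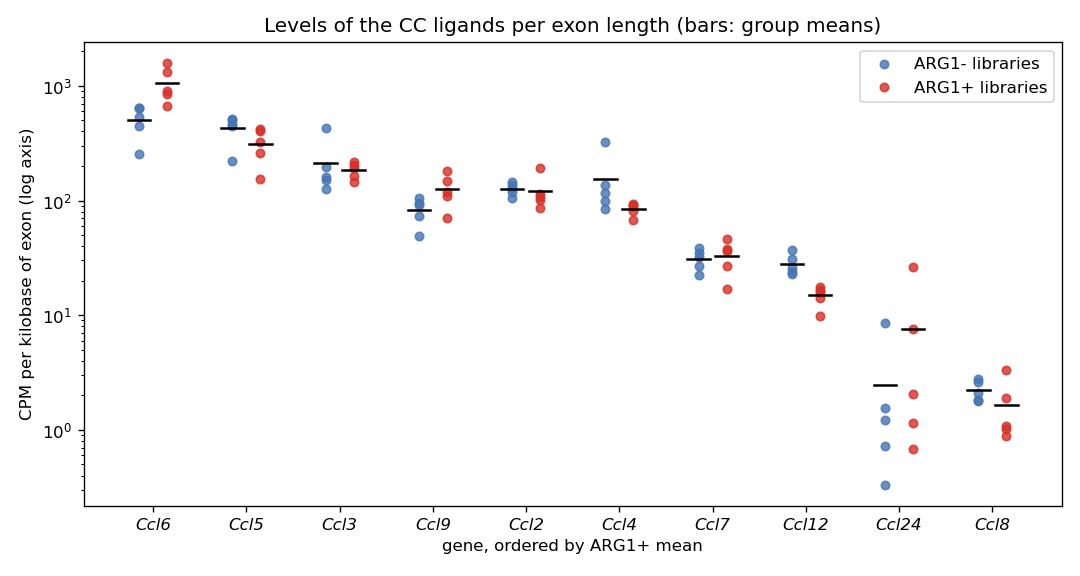
Level of each CC ligand in CPM per kilobase of exon (log axis). Each point is a library, 5 ARG1- (blue) and 5 ARG1+ (red) per gene, and the black bars are group means, which run from 1060 for *Ccl6* to 1.64 for *Ccl8* in ARG1+ cells.

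As a sum of CPM, the 10 ligands made up 1718 to 3243 CPM in ARG1+ and 1443 to 1756 CPM in ARG1- libraries, with the ARG1+ library higher in 5 of 5 animals. *Ccl6* alone gave 55.7% to 69.6% of that sum in ARG1+ and 25.3% to 52.7% in ARG1- libraries. With *Ccl9* the share was 68.0% to 86.5% in ARG1+ and 35.5% to 70.6% in ARG1- libraries. Both lowest ARG1- shares belonged to the library of m234, and without it *Ccl6* took at least 44.4% of the sum and both genes together at least 59.5%. These shares are of CPM and not of CPM per kilobase, so that genes with longer exons weigh more. *Ccl9* has 3006 and *Ccl6* 1440 exon bases, against 511 to 1295 in the other ligands.

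**Figure D2:**
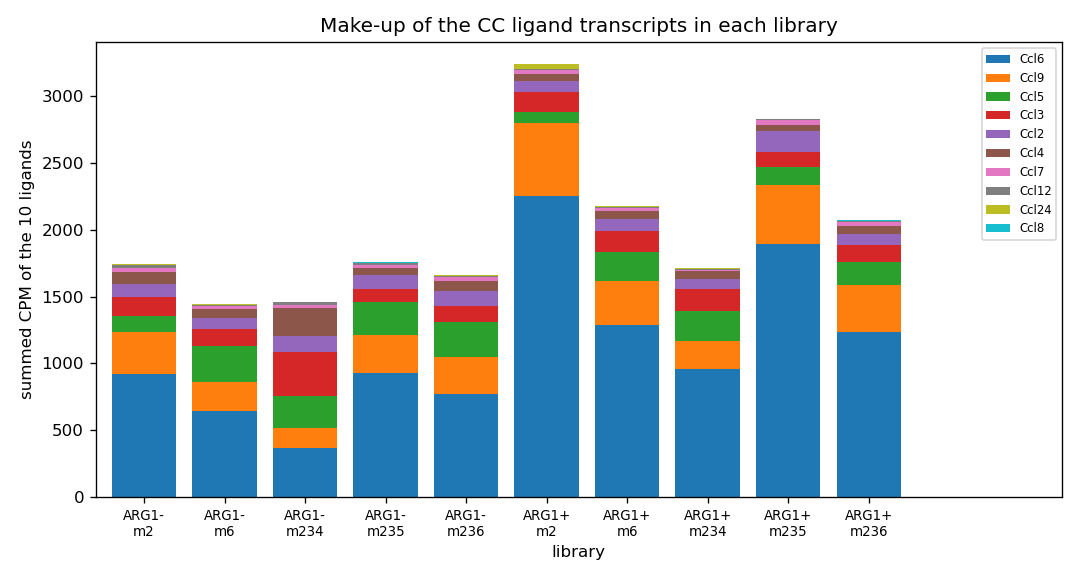
Summed CPM of the 10 ligands in each library, stacked by gene, with the 5 ARG1- libraries on the left and the 5 ARG1+ libraries on the right. *Ccl6* and *Ccl9* (blue and orange) form 68.0% to 86.5% of the column in ARG1+ cells, and the ARG1- library of m234 has the smallest *Ccl6* share (25.3%).

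Between ARG1+ and ARG1- cells, 1 ligand rose and 1 fell. *Ccl6*, a ligand of CCR1 found in rodents, was 2.10-fold higher in ARG1+ cells, and *Ccl12*, a ligand of CCR2 on monocytes, was 1.88-fold lower, both by edgeR's quasi-likelihood test at a false discovery rate (FDR) below 0.05. Of all tested genes, 6.82% passed the same limit as higher and 6.15% as lower in ARG1+ cells, against 1 of 10 ligands in each direction. *Ccl6* alone passed the FDR and an absolute log2 fold change of 1 together, as did 1.45% of tested genes, 0.560% in the higher direction. The libraries are those of the same animals, and with the animal as a block 6 of 10 ligands passed, against 35.1% of all tested genes (16.8% higher and 18.3% lower): *Ccl6*, *Ccl9* and *Ccl24* were higher and *Ccl12*, *Ccl5* and *Ccl4* lower in ARG1+ cells. In sorted bulk RNA, fewer cells that make a transcript and less of it per cell cannot be told apart.

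**Figure D3:**
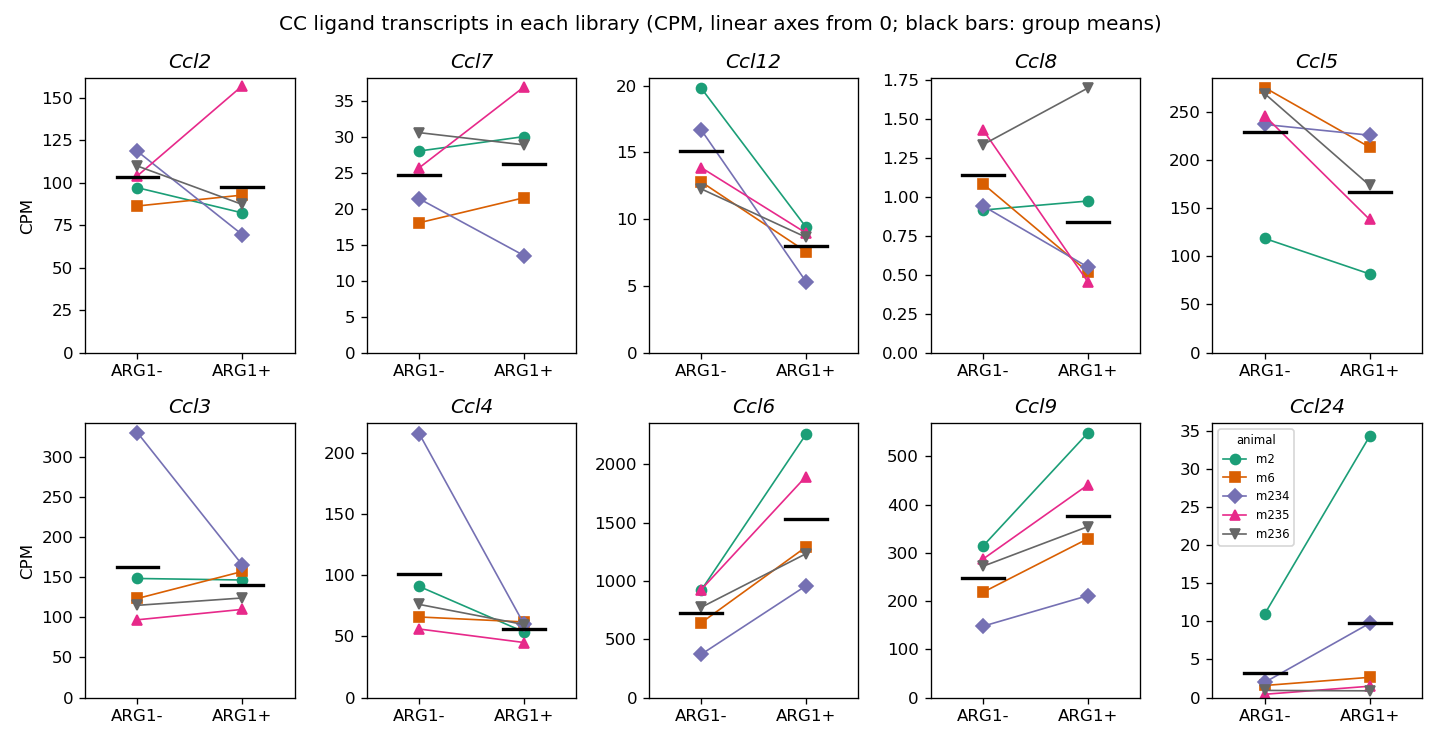
CPM of each CC ligand in ARG1- and ARG1+ cells (linear axes from 0, a panel per gene). Lines join the libraries of the same animal, m2 to m236, and the black bars are group means. All 5 lines rise for *Ccl6* and *Ccl9* and all 5 fall for *Ccl12*, *Ccl5* and *Ccl4*, and the ARG1- library of m234 lies far above the rest for *Ccl3* (331 CPM) and *Ccl4* (215 CPM).

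*Ccl6* (ENSMUSG00000018927) and its neighbour *Ccl9* (ENSMUSG00000019122), which both bind CCR1 and are made by macrophages and other myeloid cells, had the higher value in ARG1+ cells in every animal. In m2, m6, m234, m235 and m236, *Ccl6* had 2255, 1290, 957, 1894 and 1232 CPM in ARG1+ cells and 919, 640.4, 369.7, 925 and 773 CPM in ARG1- cells. The groups did not overlap, with ARG1+ above, the lowest ARG1+ and the lowest ARG1- value were both those of m234, and m2 was the highest in ARG1+ cells. The means were 1526 ± 532 in the ARG1+ sort and 725 ± 231 CPM in the ARG1- sort (SD over 5 libraries), a log2 fold change of 1.07 (SE 0.269, FDR 0.0237, edgeR). Groups without overlap and ARG1+ above were found for 6.15% of tested genes. With the animal block the log2 fold change was 1.08 (SE 0.0866, FDR 1.71e-05). In the fit without the block, leaving out the ARG1+ library of m2, the ARG1- library of m6, or an animal as a whole (m2, m6 or m236), moved the FDR to between 0.0574 and 0.0903, at log2 fold changes of 0.89 to 1.16.

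The CPM of *Ccl9* in m2, m6, m234, m235 and m236 were 548, 329, 211, 441 and 354 in ARG1+ cells and 314, 218, 148, 287 and 272 in ARG1- cells. The ARG1+ library was the higher of both in each animal, but the groups overlapped, with m234 the lowest and m2 the highest in both sorts. The means were 377 ± 126 in the ARG1+ sort and 248 ± 65.9 CPM in the ARG1- sort (SD over 5 libraries), a log2 fold change of 0.60 (SE 0.242, FDR 0.119, edgeR), and with the animal block 0.58 (SE 0.0548, FDR 4.35e-05). *Ccl9* also passed the FDR limit without the block when the ARG1+ library of m234 was left out, at a log2 fold change of 0.75 (FDR 0.0396), or both libraries of that animal, at 0.62 (FDR 0.0357). Over the animals, log2 differences (ARG1+ minus ARG1-) were 0.67 to 1.37 for *Ccl6* and 0.38 to 0.80 for *Ccl9*, and in each animal that of *Ccl6* was the larger.

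Marker lists of other cells were summed in the same libraries. Of 10 markers of border-associated macrophages, 5 were tested and 3 were higher in ARG1+ cells. With the animal block all 5 were higher, against 16.8% of all tested genes. The summed CPM of the 10 markers was 905 to 1727 in ARG1+ and 474 to 1063 in ARG1- libraries, lowest in the ARG1- library of m234 and at least 770 in the other ARG1- libraries. Most of that sum was *F13a1*, a coagulation factor chain, at 1019 and 594 CPM on average, which did not pass the test without the block (log2 fold change 0.78, FDR 0.0511, edgeR). *Pf4*, a platelet factor and macrophage transcript, rose the most (log2 fold change 1.88, FDR 0.00324, edgeR). *Mrc1*, which the paper names with *Cd163* as identifying macrophages associated with the central nervous system, rose as well. Its log2 fold change was 1.16 (FDR 0.0320, edgeR), with means of 60.9 (ARG1+) and 26.8 CPM (ARG1-). By contrast, *Lyve1* and *Cd163*, which also define such macrophages, were at 0 to 0.228 and 0 to 0.130 CPM. Of 10 genes of the neutrophil list 4 were tested and 2 fell, and with the block 2 were higher and 2 lower. The list summed to 132 to 323 CPM in ARG1+ and 69.0 to 193 CPM in ARG1- libraries, or 108 to 193 CPM without m234. Most of it was *Mmp8*, a collagenase, at 206 and 114 CPM on average (FDR 0.0878, edgeR without the block). *S100a9*, a calcium-binding protein that is abundant in neutrophils, fell the most (log2 fold change -3.40, FDR 0.00977, edgeR) but was scarce. All ARG1+ libraries had 0.161 to 0.356 CPM of it. Among ARG1- libraries m2 had 6.27 and m6 3.77 CPM, and the remaining animals 0.470 to 1.07 CPM. *Ly6g* was near 0 as given above. The part of these cells in the *Ccl6* and *Ccl9* values was not tested.

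*Ccl9* and *Ccl6* are adjacent on the minus strand, 9245 bases apart. As they moved the same way in all 5 animals, the 250 bases before their starts are shown (RefSeq, GRCm38.p6, minus strand), with the longest run of letters that both hold in capitals. RefSeq entries were at hand for 5 of the 10 members, *Ccl12*, *Ccl8*, *Ccl3*, *Ccl6* and *Ccl9*.
Ccl6: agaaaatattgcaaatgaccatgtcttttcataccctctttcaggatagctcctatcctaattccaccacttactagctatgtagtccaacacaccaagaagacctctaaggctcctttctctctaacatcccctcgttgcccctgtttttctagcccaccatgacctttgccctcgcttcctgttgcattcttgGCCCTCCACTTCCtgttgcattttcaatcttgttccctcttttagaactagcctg (chr11:83593088-83593337)
Ccl9: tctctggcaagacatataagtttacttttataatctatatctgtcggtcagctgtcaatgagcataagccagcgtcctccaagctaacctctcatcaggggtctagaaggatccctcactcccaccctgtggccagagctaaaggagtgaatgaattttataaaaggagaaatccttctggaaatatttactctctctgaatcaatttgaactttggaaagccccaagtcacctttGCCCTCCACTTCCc (chr11:83578637-83578886)
The shared run is 13 bases long and lies 43 to 55 bases before the start of *Ccl6* and 2 to 14 bases before that of *Ccl9*. On either strand it was found in 5 of 32851 upstream sequences of the same length (0.0152%), and 2 of these 5 are *Ccl6* and *Ccl9* themselves. The run was picked because both windows hold it, so that its presence in both is no test of shared control. How long a run unrelated windows share was not tested. In the 5 member sequences, both strands were also searched for TGACTCA (found in 4.46% of all upstream sequences), TTGCNNAA (9.56%), GAGGAAGT (2.44%), TTCCNGGAA (0.913%) and GAAANNGAA (7.13%), letters used for sites of AP-1, C/EBP, PU.1, STAT and IRF factors. GAAANNGAA was in the window of *Ccl3*, and the others were in none. TATAAA (12.4%) was in those of *Ccl12*, *Ccl8* and *Ccl9*.

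Among the ligands of CCR2, which brings monocytes out of the bone marrow and into inflamed tissue, *Ccl12* fell while *Ccl2* and *Ccl7* did not pass the test. *Ccl12* was measured at 9.40, 7.57, 5.32, 8.96 and 8.64 CPM in the ARG1+ cells of m2, m6, m234, m235 and m236 and at 19.8, 12.8, 16.7, 13.9 and 12.3 CPM in their ARG1- cells. All 5 ARG1+ libraries lay below all 5 ARG1- libraries, as for 5.20% of tested genes, and m234 had the largest gap. The means were 7.98 ± 1.63 in the ARG1+ sort and 15.1 ± 3.15 CPM in the ARG1- sort (SD over 5 libraries), a log2 fold change of -0.91 (SE 0.170, FDR 0.00580, edgeR). The call was made in all 15 fits that left out a library or an animal, with log2 fold changes of -1.01 to -0.76.

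In m2, m6, m234, m235 and m236, *Ccl2* had 82.3, 92.8, 69.5, 157 and 87.3 CPM in ARG1+ cells and 97.1, 86.4, 119, 104 and 109.9 CPM in ARG1- cells. *Ccl2*, the main monocyte chemoattractant, was higher in the ARG1+ library in 2 of 5 animals, with its highest value in the ARG1+ library of m235. The means were 97.8 ± 34.3 in the ARG1+ sort and 103 ± 12.3 CPM in the ARG1- sort (SD over 5 libraries), a log2 fold change of -0.07 (SE 0.185, FDR 0.826, edgeR), and the sign turned when m234 was left out (0.08, FDR 0.810). The CPM of *Ccl7* in m2, m6, m234, m235 and m236 were 30.0, 21.5, 13.5, 37.0 and 28.9 in ARG1+ cells and 28.0, 18.1, 21.4, 25.7 and 30.6 in ARG1- cells. *Ccl7*, which lies 8258 bases from *Ccl2* and also attracts monocytes, had the direction of *Ccl2* in every animal but m2. Both were lower in ARG1+ cells in m234 and m236 and higher in m6 and m235. The *Ccl7* means were 26.2 ± 8.96 in the ARG1+ sort and 24.8 ± 5.05 CPM in the ARG1- sort (SD over 5 libraries), a log2 fold change of 0.08 (SE 0.231, FDR 0.860, edgeR) with a sign that turned without m235.

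*Ccl8*, which in the mouse acts on CCR8, was near the filter limit, at 8 to 52 counts per library. *Ccl8* was measured at 0.971, 0.517, 0.548, 0.454 and 1.70 CPM in the ARG1+ cells of m2, m6, m234, m235 and m236 and at 0.913, 1.08, 0.940, 1.43 and 1.33 CPM in their ARG1- cells. The groups overlapped, and the ARG1+ library was lower in m6, m234 and m235 and higher in m2 and m236. The log2 fold change was -0.47 (SE 0.354, FDR 0.403, edgeR), and the gene did not pass the test.

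*Ccl5*, *Ccl3* and *Ccl4* attract T cells and macrophages, and *Ccl5* and *Ccl3* bind CCR1. In m2, m6, m234, m235 and m236, *Ccl5* had 81.6, 213, 226, 138 and 174 CPM in ARG1+ cells and 118, 275, 237, 246 and 269 CPM in ARG1- cells. *Ccl5* was lower in ARG1+ cells in each animal, by log2 differences of -0.83 to -0.07, but the groups overlapped, with m2 the lowest in both sorts. The means were 166 ± 58.6 in the ARG1+ sort and 229 ± 63.7 CPM in the ARG1- sort (SD over 5 libraries), and the log2 fold change was -0.46 (SE 0.271, FDR 0.279, edgeR) without and -0.49 (SE 0.0872, FDR 0.00201) with the animal block. A like direction in all 5 animals was found in 41.0% of tested genes, 21.0% lower and 20.0% higher in ARG1+ cells. Leaving out the ARG1+ library of m2 brought the unblocked value to -0.29.

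The CPM of *Ccl4* in m2, m6, m234, m235 and m236 were 53.5, 61.7, 59.8, 44.9 and 59.6 in ARG1+ cells and 90.7, 65.8, 215, 55.9 and 76.0 in ARG1- cells. *Ccl4* was also lower in ARG1+ cells in each animal, by 0.09 to 0.76 on the log2 scale in 4 animals and by 1.85 in m234, whose ARG1- library had more than any other. The means were 55.9 ± 6.88 in the ARG1+ sort and 101 ± 65.3 CPM in the ARG1- sort (SD over 5 libraries), and the log2 fold change was -0.83 (SE 0.309, FDR 0.0969, edgeR) without the block and -0.67 (SE 0.203, FDR 0.0283) with it. Without both libraries of m234 these were -0.39 (FDR 0.100) and -0.38 (FDR 0.00134). A 2-sided exact permutation test of its log2 CPM alone gave p = 0.0397, before any adjustment over genes.

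*Ccl3* was measured at 147, 157, 166, 110.0 and 124 CPM in the ARG1+ cells of m2, m6, m234, m235 and m236 and at 149, 124, 331, 97.1 and 115 CPM in their ARG1- cells. *Ccl3*, whose gene is 13228 bases from that of *Ccl4* on the opposite strand, had 331 CPM in the ARG1- library of m234 and 97.1 to 166 CPM in the other 9. The log2 fold change was -0.20 (SE 0.286, FDR 0.684, edgeR), and it became 0.15 (FDR 0.495) without both libraries of m234, or 0.16 (FDR 0.0225) with the block in addition. The microglia markers were highest in the same library. There *Sparc*, the most abundant of them, was at 627 CPM, against 43.8 to 146 CPM in the other ARG1- libraries. The marker tests that follow include that library and were not repeated without it. Of these 9 markers, 0 passed the unblocked edgeR test (6 had an unadjusted p below 0.05, and 2 passed by DESeq2 and 0 by limma-trend), 8 were lower in ARG1+ cells with the block, the median log2 fold change was -1.42, and all 9 passed the filter. The part of microglia in the *Ccl3* and *Ccl4* values was not tested.

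*Ccl24* acts on CCR3, the receptor of eosinophils, and is a known transcript of macrophages treated with interleukin-4. In m2, m6, m234, m235 and m236, *Ccl24* had 34.3, 2.65, 9.74, 1.48 and 0.880 CPM in ARG1+ cells and 11.0, 1.58, 2.00, 0.428 and 0.933 CPM in ARG1- cells. The highest value of either sort was that of m2, the groups overlapped, and in 4 of 5 animals the ARG1+ library was the higher, with m236 nearly equal. The means were 9.80 ± 14.1 in the ARG1+ sort and 3.19 ± 4.40 CPM in the ARG1- sort (SD over 5 libraries), and the log2 fold change was 1.56 (SE 1.02, FDR 0.327, edgeR) without the block and 1.36 (SE 0.242, FDR 0.00195) with it. The unblocked value was 0.17 without the ARG1+ library of m2, 3.10 without its ARG1- library and 1.68 (FDR 0.225) without both. The gene had 12 to 988 counts per library.

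**Figure D4:**
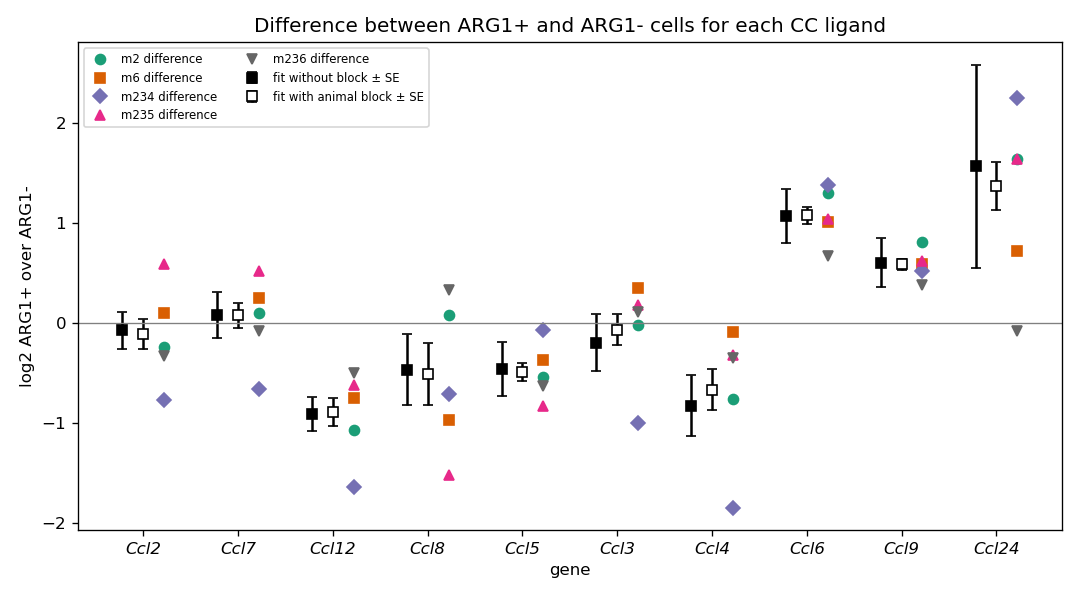
Log2 difference between ARG1+ and ARG1- cells for each CC ligand. Filled squares are the fit without a block and open squares the fit with the animal as a block (bars: SE), and coloured points are the differences within each animal. For *Ccl9*, *Ccl5* and *Ccl24* the SE is smaller with the block (0.0548, 0.0872 and 0.242) than without it (0.242, 0.271 and 1.02), and m234 (diamonds) lies lowest for *Ccl2*, *Ccl7*, *Ccl12*, *Ccl3* and *Ccl4*.

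Of 11 further CC ligands on a list, 3 passed the filter and 2 of them fell, *Ccl17* and *Ccl22*, which draw T cells through CCR4 and are made by dendritic cells. *Ccl17* was 1.49 ± 1.28 CPM in ARG1+ and 12.1 ± 7.30 CPM in ARG1- libraries (log2 fold change -3.01, FDR 0.00681, edgeR). *Ccl22* was 1.34 ± 0.816 and 11.6 ± 5.55 CPM (-3.12, FDR 0.00143; SD, n = 5 each). The groups of both genes did not overlap. The third, *Ccl25*, a thymic and intestinal ligand, had a log2 fold change of 0.14 (FDR 0.622), and *Ccl20*, *Ccl21a* and *Ccl26* were at 0 counts in all libraries. Of 12 dendritic cell markers, which include both genes, 10 were tested and 7 fell, *Ccl17* and *Ccl22* among them. The summed CPM of the 12, both ligands included, was 20.3 to 41.8 in ARG1+ and 54.3 to 160 in ARG1- libraries, or up to 111 without m234. *Siglech*, the most abundant of the list and also one of the microglia markers, was at 70.8 CPM in the ARG1- library of m234. The part of dendritic cells in the values of *Ccl17* and *Ccl22* was not tested.

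Of 14 CC receptors, 4 passed the filter and 2 fell. *Ccr2*, the receptor of *Ccl2*, *Ccl7* and *Ccl12*, was 178 ± 51.5 CPM in ARG1+ and 387 ± 73.9 CPM in ARG1- libraries (log2 fold change -1.12, FDR 0.00339, edgeR), without overlap. *Ccr7*, the receptor with which dendritic cells enter lymph vessels, was 1.07 ± 0.181 and 7.26 ± 3.27 CPM (-2.76, FDR 2.03e-04; SD, n = 5 each). *Ccr1*, the receptor of *Ccl6*, *Ccl9*, *Ccl3* and *Ccl5*, did not pass the test at 259 ± 54.4 and 269 ± 54.1 CPM (-0.06, SE 0.161, FDR 0.833), nor did *Ccrl2* (0.01, FDR 0.963), a receptor that does not signal and had the highest CPM of the list. *Ccr3*, the receptor of *Ccl24*, was at 0 to 0.357 CPM and *Ccr8* at 0 to 0.0630 CPM, both under the filter.

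By the root mean square difference between log2 CPM profiles over the 10 libraries, each centred on its own mean, the gene most like *Ccl6* was *Cxcl3* (0.158, against an SD of 0.714 for the *Ccl6* profile), a CXC chemokine that attracts neutrophils, followed by *F7* (0.211). *Ccl9* was nearest to *Gm17819* (0.202) and *Gstm2-ps1* (0.205). *Ccl5* was nearest to *Cxcl9* (0.225) and *Iigp1* (0.243), at a profile SD of 0.550. *Cxcl9* attracts activated T cells and *Iigp1* is a GTPase, and interferon-gamma induces both. *Ccl12* was nearest to *Ripor2* (0.187) and *4930523C07Rik* (0.241), *Ccl4* to *Bin1* (0.143) and *Rhbdf1* (0.147), and *Ccl3* to *Eml6* (0.124) and *Slc12a2* (0.130). The nearest genes of *Ccl2* were *Cdk6* (0.165) and *Fbxo46* (0.166), and those of *Ccl7* were *Lins1* (0.225) and *Ankrd33b* (0.229). *Ccl8* was nearest to *Fth-ps2* (0.328) and *B230303O12Rik* (0.341). Distances were largest for *Ccl24*, whose nearest genes were *Ltbp3* (1.26) and *Ephx1* (1.32) at a profile SD of 1.81. The points share libraries, and these distances are a description.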

How the data were processed

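RNA from 10 sorted cell samples was sequenced as 50-base single-end reads. The authors aligned them to GRCm38 with STAR (2.7.10b in the submitters' processing notes, which also list Picard) and counted them on basic Ensembl release 100 transcripts with summarizeOverlaps in Union mode. The deposited values are whole-number counts per gene, without normalization. No source used here states whether strand was used in counting.

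A total of 13740 of 55487 genes reached a CPM over 1 in 3 or more libraries and were tested with edgeR's quasi-likelihood test (edgeR 4.0.16, R 4.3.3; TMM library sizes, no block), with Benjamini-Hochberg FDR below 0.05 over all tested genes. Alternative fits used DESeq2 1.42.0, limma-trend (limma 3.58.1; prior count 2 or 0.5), other normalizations and filters, the animal as a block, a fold change limit, exact permutation tests, and each library or animal left out. The animal pairs the libraries: residuals from group means correlated at 0.361 to 0.664 across genes within animals and at -0.367 to 0.0675 between animals. The fits were also run on simulated counts without an animal effect, in which 200 well-counted genes were changed. Each fit recovered all 200. Unchanged genes were called 9 times by edgeR, 10 times by edgeR with the block, 9 times by limma-trend and 30 times by DESeq2. The simulation does not cover paired libraries, low genes or smaller changes. At the total of the smallest library 1 CPM is about 8.40 counts, against 28.2 or more in the others, and these bear on low genes such as *Ccl8*. Coding sequences were aligned with Biopython 1.88. Exon lengths and coding sequences came from GENCODE M21 and promoters from RefSeq. The reads had been counted on Ensembl release 100 and not on M21, and the gene bounds of each member were the same in both.

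The members and lists were chosen with earlier results of these data known. Some genes of the lists are not reported here and were left out of the lists' counts and sums. All members, tested genes of the ligand and receptor lists, and the 2 genes nearest to each member in profile are named. Of other lists the most abundant and the most changed gene and those that define a cell type could be named, and some of them are.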

Additional observations from a re-analysis of the deposited data

Results flagged for a closer look

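In each group of 5 libraries the highest and lowest member value was compared with its nearest neighbour. In 6 of 20 groups a library had a gap that passed Dixon's limit as a share of the range. Chance gives about 1 in 20 for independent groups of normal values. The groups here share libraries and animals, so that the 6 cannot be set against that rate. *Ccl3* was 331 CPM in the ARG1- library of m234, with the next at 149, and *Ccl4* was 215 CPM there, with the next at 90.7. *Ccl24* was 34.3 CPM in the ARG1+ library of m2, with the next at 9.74, and 11.0 CPM in its ARG1- library, with the next at 2.00. *Ccl5* was lowest in the ARG1- library of m2, at 118 CPM against at least 237 in the others. *Ccl2* was highest in the ARG1+ library of m235, at 157 CPM, with the next at 92.8.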

How the results depend on the processing

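The count of ligands past the FDR limit was 2 under the other library sizes, filters, DESeq2 and limma-trend, 1 with the fold change limit, and 1 to 3 when a library or animal was left out. With the animal as a replicate block it was 6, and 7 with the block and without m234, an alternative chosen after seeing the data in which 40.7% of all tested genes passed, against 35.1% with the block alone. The replicate block added *Ccl9*, *Ccl24*, *Ccl5* and *Ccl4* and left the counts of further ligands (2) and receptors (2) as they were, and both counts held in every other alternative run. *Ccl8* was not tested without m236. Signs turned for 3 ligands not called in the unblocked fit. *Ccl2* was at 0.029 without the ARG1+ library of m234, 0.078 without m234 and 0.037 with the block in addition. *Ccl7* was at -0.083 without the ARG1+ library of m235, -0.025 without the ARG1- library of m6 and -0.067 without m235. *Ccl3* was at 0.22 without the ARG1- library of m234, 0.15 without m234 and 0.16 with the block in addition, where it passed the FDR limit (0.0225). With a library or animal left out, their log2 fold changes ranged from -0.31 to 0.078, from -0.083 to 0.24 and from -0.33 to 0.22. The causes were not tested. *Ccl8* had 8 to 52 counts per library, and *Ccl24* 12 to 988, the lowest being in a library of full depth.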

Other observations

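Response genes that often accompany CC ligands were summed as lists. Of 10 interferon-stimulated genes, 1 fell in ARG1+ cells, *Isg15* (log2 fold change -0.89, FDR 0.0420, edgeR), the list's median was -0.56 and 9 were lower with the animal block. Their summed CPM was highest in m235 in both sorts, at 1834 in ARG1+ and 1992 in ARG1- cells. Of 12 genes of the NF-kB and LPS-type response, 1 rose, *Cxcl2* (0.62, FDR 0.00538), a neutrophil chemoattractant, with a median of 0.06, and 5 were higher and 2 lower with the block. Of 10 immediate early genes 2 rose, with a median of 0.15, and their sum was 6370 to 7866 CPM in ARG1+ and 5680 to 6880 CPM in ARG1- libraries, or 5680 to 6150 CPM without m234. With the block 6 of them were higher and 2 lower. Of 10 binding partners and proteases of chemokines, 8 were tested, of which 1 rose and 1 fell, *Dpp4* (-3.55, FDR 8.15e-04), a protease that trims chemokines. With the block 6 were higher and 1 lower. The median over all 13740 tested genes was -0.002.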
